A study of Mus musculus with 2 samples.

Results

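The S phase and mitosis genes described here are 40 genes that cells use to copy and divide their chromosomes. They were chosen by symbol, 12 for S phase and 28 for G2 and mitosis, out of 31053 genes in the matrix, and all 40 were present. In S phase, origins licensed with the MCM2-7 helicase fire and DNA is copied with help from the sliding clamp PCNA and from enzymes that make deoxynucleotides. In G2 and mitosis, cyclin-dependent kinase 1 with cyclins A and B drives entry into division, condensins and topoisomerase II shape the chromosomes, and kinetochore, spindle and cytokinesis proteins separate them. Their RNA is low in resting cells, so it is widely used to find dividing cells in tumours, both among the tumour cells and among the leukocytes.

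The tumours were of B16F10, a mouse melanoma line that grows after injection, and were taken at 2 weeks. Viable CD45+ cells were sorted from them and their RNA was counted per cell from the 3′ end, in droplets. Here 1 library came from mice with a myeloid-specific c-Rel KO (LysM-cre x RelloxP/loxP) and the other from WT mice (LysM-cre x Rel+/+), so both carry LysM-cre, which acts in macrophages, monocytes and neutrophils and in few other cells. Each library pooled 5 tumours, and there was 1 library per genotype. The barcodes carry the number 1 or 2, which no label or header links to KO or WT. The libraries go by these numbers here, and nothing was compared between genotypes. Rel, which encodes c-Rel, was at 328 and 96.9 CPM (counts per 1000000 UMIs, unique molecular identifiers) in monocyte barcodes of libraries 1 and 2 and at 138 and 24.3 CPM in macrophage barcodes. A 3′ count need not report on the deleted part of the gene, and these values assigned no library. With 1 library per genotype there was no test. All intervals are exact 95% intervals that cover counting error only, Poisson for levels, Clopper-Pearson for shares and conditional binomial for ratios. A gene is called higher or lower in a comparison where it differed by at least 2 times in both libraries and had at least 50 UMIs over both sides in each.

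Library 1 held 7688 barcodes and library 2 held 10564, with medians of 1588 and 4290 UMIs. The libraries shared 3609 barcode sequences, and 1991 and 1529 barcodes whose sequence held over 10 times as many UMIs in the other library were left out, after which 5198 and 7999 were kept. Of the kept barcodes, 1607 and 2003 still had a sequence that occurs in both libraries. Barcodes were put into classes by UMIs of marker genes, never by the 40 genes, and the class names stand for these marker rules. Despite the CD45 sort, 2193 and 5218 barcodes were melanoma barcodes, which held 4.99 and 3.73 CPM of Ptprc, the CD45 gene, while macrophage barcodes held 277 and 199 CPM. Cd8a was at 479 and 472 CPM in CD8 T barcodes and without a UMI in NK barcodes, Ncr1 at 522 and 484 CPM in NK barcodes, C1qa at 4124 and 2944 CPM in macrophage barcodes and 70.8 and 25.2 CPM in monocyte barcodes, and Flt3 at 66.1 and 98.1 CPM in dendritic barcodes, from 4 and 5 UMIs. Cd8a, Ncr1, C1qa and Flt3 are themselves markers of these rules, so their levels follow in part from the rules. Melanoma RNA was present in every class. Summed Pmel, Mlana, Dct and Tyrp1, pigment cell genes, stood in the leukocyte classes described below at 2.21 to 3.82% of their melanoma level in library 1 and at 5.43 to 7.54% in library 2.

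Promoters are shown first, with the motifs known from S phase and mitosis genes. RefSeq windows from 250 bases before to 50 after the start (GRCm38.p6) were found for 34 of the 40, 24 mitosis and 10 S phase genes. The other 6 are Aurkb, Ccna2, Gins2, Mcm4, Smc4 and Tpx2. Windows were searched on both strands for 3 motifs. These were the cell cycle genes homology region (CHR, letters TTTGAA or TTCGAA), through which the DREAM complex represses mitosis genes in resting cells, the CCAAT box (letters CCAAT), bound by NF-Y, and the E2F site (letters TTTCCCGC, TTTCGCGC, TTTGCCGC or TTTGGCGC). A gene of the 34 was counted if any of its windows held the motif, while for the background each window was counted singly. A CHR was present in 19 of 24 mitosis genes and 2 of 10 S phase genes, against 19.2% of all 32851 windows. CHR together with CCAAT was present in 18 of 24 and 2 of 10, against 7.52% of all. An E2F site was present in 1 of 24 mitosis genes, Cdk1, and in 5 of 10 S phase genes, against 2.26% of all windows. The 5 were Mcm3, Mcm5, Mcm6, Mcm7 and Cdc6, of which Mcm7 also held a CHR and Cdc6 held no CCAAT box. Mcm2, Pcna, Tyms, Rrm1 and Rrm2 held no E2F site. The CCAAT box alone was present in 20 of 24 and 8 of 10, against 37.4%. Motifs may overlap one another, and a match or its absence describes these letters in this window and says nothing of binding. The windows of Ccnb2 (chr9:70421505-70421804) and Top2a (chr11:99024140-99024439) are examples with CHR and CCAAT, as in 18 of 24 mitosis genes. Those of Mcm3 (chr1:20820263-20820562) and Mcm6 (chr1:128359656-128359955) are examples with E2F and CCAAT and no CHR. Of the other S phase genes only Mcm5 had this set. The 4 windows of Ccnb2, Top2a, Mcm3 and Mcm6 are printed 5′ to 3′ on the minus strand, with the motif letters of either strand in capitals.
Ccnb2: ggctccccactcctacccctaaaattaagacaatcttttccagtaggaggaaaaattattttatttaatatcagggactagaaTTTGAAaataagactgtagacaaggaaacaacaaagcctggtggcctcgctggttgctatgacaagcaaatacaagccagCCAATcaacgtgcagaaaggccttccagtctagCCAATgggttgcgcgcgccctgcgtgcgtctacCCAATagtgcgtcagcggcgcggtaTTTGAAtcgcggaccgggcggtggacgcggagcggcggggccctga
Top2a: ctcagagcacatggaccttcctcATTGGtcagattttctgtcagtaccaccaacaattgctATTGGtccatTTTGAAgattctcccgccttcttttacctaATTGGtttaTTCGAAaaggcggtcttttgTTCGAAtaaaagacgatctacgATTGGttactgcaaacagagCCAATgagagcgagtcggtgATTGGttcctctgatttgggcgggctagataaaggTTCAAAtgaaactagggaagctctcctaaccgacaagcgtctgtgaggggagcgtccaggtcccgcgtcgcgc
Mcm3: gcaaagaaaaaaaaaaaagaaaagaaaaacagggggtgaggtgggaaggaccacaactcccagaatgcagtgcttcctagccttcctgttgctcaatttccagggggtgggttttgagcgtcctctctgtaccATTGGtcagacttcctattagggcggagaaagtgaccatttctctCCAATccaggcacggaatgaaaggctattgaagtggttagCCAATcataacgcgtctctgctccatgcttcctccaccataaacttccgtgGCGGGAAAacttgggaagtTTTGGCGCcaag
Mcm6: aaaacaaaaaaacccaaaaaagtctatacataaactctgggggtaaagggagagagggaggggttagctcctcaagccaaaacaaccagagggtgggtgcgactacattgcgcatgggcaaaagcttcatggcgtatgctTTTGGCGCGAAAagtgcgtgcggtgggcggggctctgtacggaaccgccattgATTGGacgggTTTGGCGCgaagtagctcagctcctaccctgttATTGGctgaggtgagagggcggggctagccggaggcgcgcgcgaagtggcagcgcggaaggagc
Ccnb2 held 2 CHR and 3 CCAAT matches and no E2F match, and Top2a held 4 and 6 with no E2F match. Mcm3 held 2 E2F and 3 CCAAT matches and Mcm6 held 3 and 2, of which 2 E2F matches overlap, and neither held a CHR.

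Summed over the 40 genes, melanoma and CD8 T barcodes held the most S phase and mitosis RNA, macrophages held about as much as the few dendritic barcodes, and monocytes held the least of the 6 classes described. In melanoma barcodes the sum was 4152 CPM in library 1 (4132 to 4172) and 3492 CPM in library 2 (3477 to 3506). In 352 and 243 CD8 T barcodes it was 3749 (3625 to 3875) and 3227 CPM (3066 to 3393). In 495 and 646 macrophage barcodes it was 2293 (2227 to 2361) and 2200 CPM (2133 to 2269). These classes kept the same order in both libraries, with no overlap of intervals between neighbours within a library. With every barcode weighted equally the order was the same, but CD8 T stood at 2210.1 and 2536 CPM, further below melanoma at 3593 and 3194 CPM, and macrophages at 1646 and 1888 CPM.
The 18 dendritic barcodes of each library held 2576 (2188 to 3014) and 2414 CPM (2007 to 2881), not apart from macrophages beyond counting error. In 512 and 446 monocyte barcodes the sum was 388 (351 to 428) and 469 CPM (412 to 532), and in 148 and 36 NK barcodes it was 1411 (1230 to 1610) and 878 CPM (588 to 1261). Other T barcodes, those with no CD8 marker or with a CD4 marker, stood at 2407 and 2511 CPM.
If the leukocyte classes held melanoma RNA in the proportion of the pigment genes, that RNA alone would give 103 and 211 CPM of the 40 genes in CD8 T barcodes, 91.7 and 263 CPM in macrophages, 158 and 230 CPM in NK and 120 and 252 CPM in monocytes. The measured sums lay above these levels in each of these classes, in monocytes of library 2 by under 2-fold. Neutrophils, which do not divide once mature, were at 894 and 623 CPM, but 1 barcode held 67 of the 89 UMIs of library 1, and without it the level was 236 CPM.

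**Figure D1:**
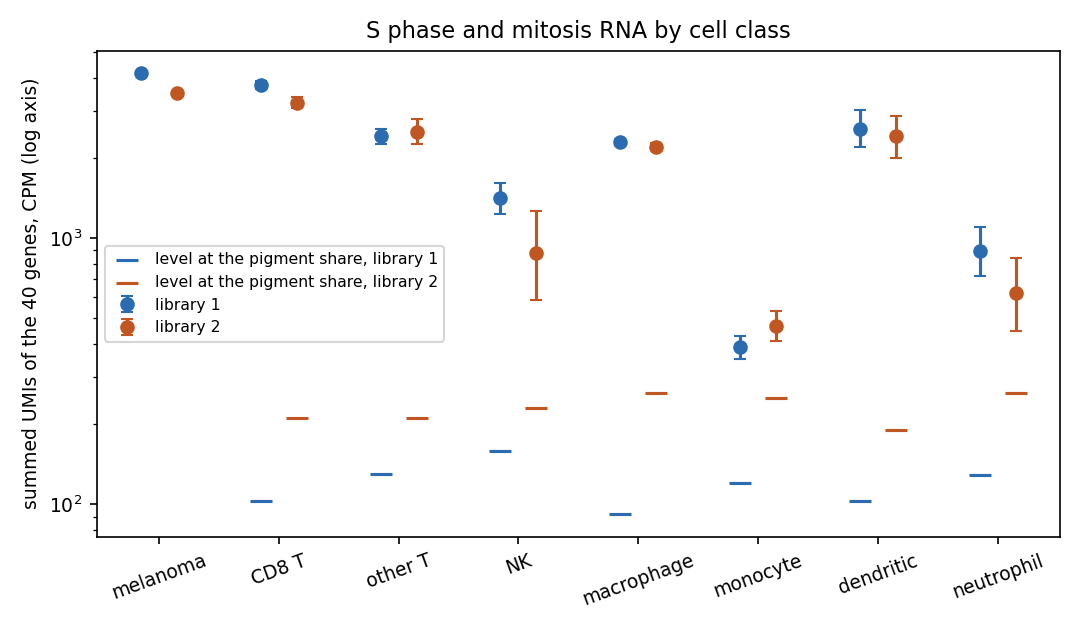
Summed level of the 40 genes in CPM (log axis) in each class and library, with exact Poisson 95% intervals, and, as short bars, the level that melanoma RNA at the pigment gene share would give. Melanoma (4152 and 3492 CPM) and CD8 T barcodes (3749 and 3227 CPM) stand highest and monocytes (388 and 469 CPM) lowest.

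A barcode was called cycling when at least 2 different genes of the 40 were seen after thinning it to 1000 UMIs, which sets all barcodes to 1 depth and leaves out shallower ones. By this rule 63.8% of 2162 melanoma barcodes in library 1 (61.8 to 65.9) and 61.6% of 5166 in library 2 (60.3 to 63.0) were cycling. Among CD8 T barcodes the shares were 43.6% of 273 (37.6 to 49.7) and 54.7% of 172 (46.9 to 62.2), with 79 and 71 shallower barcodes left out. Macrophages stood at 31.1% of 476 (27.0 to 35.5) and 39.1% of 614 (35.2 to 43.1).
The macrophage share lay below the CD8 T share in both libraries, and both lay below melanoma, except that the upper bound for CD8 T in library 2 passed the lower bound for melanoma. Thinned to 2000 UMIs, CD8 T no longer stood below melanoma, with 80.3% of 142 and 88.2% of 85 CD8 T barcodes against 78.1% of 2112 and 76.6% of 5055 melanoma barcodes, while macrophages stood at 49.6% and 63.9%. This depth kept 142 of the 273 and 85 of the 172 CD8 T barcodes, but 2112 of the 2162 and 5055 of the 5166 melanoma barcodes. Monocytes were at 3.87% of 491 (2.35 to 5.98) and 8.58% of 268 (5.52 to 12.6). NK barcodes were at 25% of 52 and 12.5% of 8, with 96 and 28 shallower ones left out, and dendritic barcodes at 5 of 17 in each library (10.3 to 56.0%). With at least 3 markers per class the dendritic share of library 1 was 60%, of 5 barcodes.
In neutrophils, the class that should lack these transcripts, 2 of 18 and 4 of 22 barcodes were cycling (11.1% and 18.2%, with intervals of 1.38 to 34.7 and 5.19 to 40.3). The monocyte shares lay below the neutrophil ones, so no cycling is read from them. The NK, dendritic and macrophage intervals overlapped the neutrophil intervals in both libraries, and the neutrophil intervals rest on few barcodes. Few neutrophils reached 1000 UMIs, since their medians were 636 and 654 UMIs, against 1896.5 and 1076 in monocytes and 17882 and 11801 in melanoma barcodes. Before thinning, the shares were 96.1% and 95.5% in melanoma, 48.9% and 53.1% in CD8 T, 56.6% and 59.8% in macrophage and 12.9% and 8.74% in monocyte barcodes.
The rule sets a range on a scale and not a type of cell. In macrophages of libraries 1 and 2, 111 and 147 thinned barcodes held exactly 1 of the genes and 41 and 81 held exactly 2. In melanoma 349 and 927 held 1 and 268 and 709 held 2, and in CD8 T barcodes 58 and 41 held 1 and 36 and 24 held 2. In monocytes only 2 and 6 barcodes held 3 or more.

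Summed over all barcodes of a class, the balance of the phases was alike in melanoma and macrophage barcodes. S phase genes gave 28.4% (28.2 to 28.6) and 29.2% (29.0 to 29.4) of the UMIs of the 40 genes in melanoma, 28.5% (27.2 to 29.9) and 29.2% (27.8 to 30.6) in macrophages and 32.6% (31.1 to 34.2) and 26.6% (24.4 to 28.9) in CD8 T barcodes. The macrophage and melanoma intervals overlapped in both libraries, while CD8 T barcodes lay above both in library 1 and below melanoma, but not apart from macrophages, in library 2. Monocytes stood at 30.5% (26.1 to 35.3) and 33.1% (27.2 to 39.4).
NK barcodes, with 219 and 29 UMIs of the 40 genes, stood at 28.8% (22.9 to 35.3) and 55.2% (35.7 to 73.6). Of the 219, 1 barcode held 64, and without it the NK share was 38.1% and the NK level 1052 CPM. Dendritic barcodes had S phase shares of 17.9% (12.3 to 24.9) and 11.4% (6.36 to 18.4), below the melanoma intervals in both libraries, and 5 barcodes gave 87.2% and 92.7% of these UMIs in libraries 1 and 2.
Within cycling barcodes, before thinning, S phase genes gave 26.9% and 27.5% of the UMIs of the 40 genes in melanoma. They gave 31.5% and 25.3% in CD8 T and 24.9% and 26.6% in macrophage barcodes. Among cycling barcodes at equal depth, genes of both phases were seen together in 68.3% and 68.6% of melanoma, 77.3% and 61.7% of CD8 T and 54.7% and 59.2% of macrophage barcodes. Mitosis genes alone were seen in 25.4% and 24.8% of cycling melanoma, 16.8% and 29.8% of cycling CD8 T and 35.1% and 33.75% of cycling macrophage barcodes. S phase genes alone were seen in 6.38% and 6.60%, 5.88% and 8.51%, and 10.1% and 7.08% of them, in the same order of classes. The 40 genes hold 28 for mitosis and 12 for S phase, so these shares do not compare the numbers of cells in each phase.

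**Figure D2:**
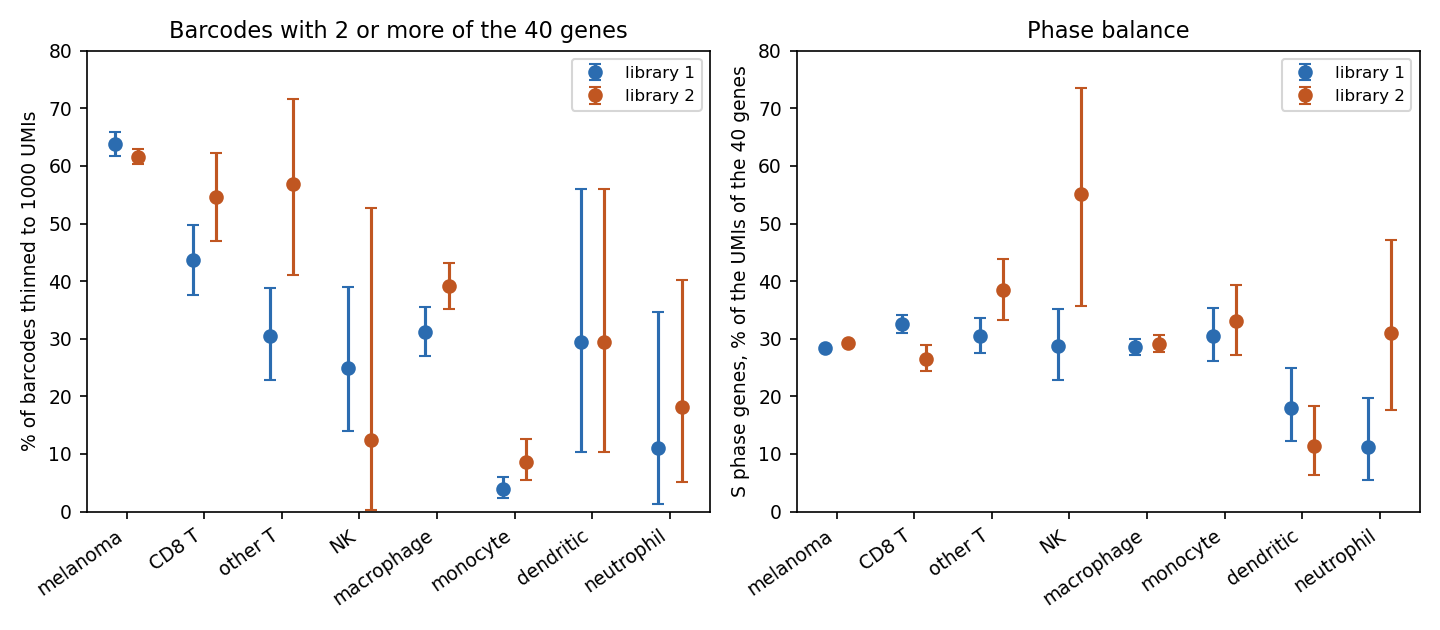
Left, percent of barcodes with at least 2 of the 40 genes after thinning to 1000 UMIs; right, percent of the UMIs of the 40 genes that come from the 12 S phase genes, each by class and library with exact binomial 95% intervals. Shares of cycling barcodes run from 63.8% and 61.6% in melanoma to 3.87% and 8.58% in monocytes, while melanoma and macrophage barcodes have S phase shares between 28.4% and 29.2%.

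By gene, the order of the 4 classes with over 200 barcodes in each library was partly shared. Monocytes held the lowest level of all 40 genes in both libraries. The highest level was in melanoma barcodes for 22 genes, in CD8 T barcodes for 10 and in macrophages for 2, and it changed class between the libraries for 6. The 10 highest in CD8 T barcodes were Mcm4, Mcm6, Mcm7, Cdc6, Ccna2, Smc4, Mki67, Cenpa, Kif11 and Nusap1, and the pair highest in macrophages was Pcna and Gins2. Values are given by role below, as levels in CPM of counts from the 3′ end.

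Licensing and helicase genes open S phase. Mcm2 to Mcm7 encode the replicative helicase, Cdc6 loads it onto origins and Gins2 is part of its active form. Their summed level was 706 and 600 CPM in melanoma, 864 and 591 CPM in CD8 T, 423 and 398 CPM in macrophage and 61.2 and 87.2 CPM in monocyte barcodes. Mcm7 was at 115 and 124 CPM in melanoma, 194 and 153 CPM in CD8 T, 83.3 and 93.5 CPM in macrophage and 7.65 and 13.6 CPM in monocyte barcodes. Mcm2 ran the other way between the first pair, with 158 and 108 CPM in melanoma, 63.4 and 40.4 CPM in CD8 T and 54.7 and 50.8 CPM in macrophage barcodes. Members of 1 hexamer thus differed in their order over the classes.

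Nucleotide and clamp genes feed and hold the polymerase. Tyms makes thymidylate, Rrm1 and Rrm2 are the subunits of ribonucleotide reductase, and Pcna is the sliding clamp, which also acts in repair. Rrm2 was at 136 and 129.6 CPM in melanoma, 62.3 and 53.2 CPM in CD8 T, 33.1 and 28.1 CPM in macrophage and 6.70 and 9.69 CPM in monocyte barcodes. Pcna was at 66.0 and 54.2 CPM in melanoma, 70.9 and 51.0 CPM in CD8 T, 85.3 and 94.6 CPM in macrophage and 29.7 and 25.2 CPM in monocyte barcodes. Macrophages exceeded monocytes in Pcna by 2.88 (1.95 to 4.37) and 3.75 times (2.14 to 7.19), and in the helicase gene Mcm7 by 10.9 (5.40 to 25.6) and 6.89 times (3.27 to 17.4).

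Cyclins and kinases of G2 and mitosis were summed over Cdk1, its partners Ccna2, Ccnb1 and Ccnb2, the mitotic kinases Aurka, Aurkb and Plk1, and the Cdk phosphatase Cdkn3. The sum was 522 and 472 CPM in melanoma, 332 and 342 CPM in CD8 T, 250 and 272 CPM in macrophage and 31.6 and 46.5 CPM in monocyte barcodes. Cdk1 was at 86.9 and 83.0 CPM in melanoma, 44.1 and 40.4 CPM in CD8 T, 34.1 and 38.9 CPM in macrophage and 2.87 and 1.94 CPM in monocyte barcodes. Aurka, which builds the spindle poles, was at 38.8 and 35.4 CPM in melanoma, 12.9 and 14.9 CPM in CD8 T and 20.6 and 17.3 CPM in macrophage barcodes. Ccna2 lay close together in the first pair of classes, with 62.4 and 51.1 CPM in melanoma and 64.5 and 55.3 CPM in CD8 T barcodes. In NK barcodes of library 2 none of the 8 genes had a UMI, with an interval of 0 to 112 CPM for their sum.

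Chromosome structure genes were Top2a, which untangles DNA, the condensin subunits Smc2 and Smc4, and Mki67, the proliferation antigen Ki-67 that coats mitotic chromosomes. Top2a was at 382 and 291 CPM in melanoma, 353 and 281 CPM in CD8 T, 174 and 151 CPM in macrophage and 15.3 and 11.6 CPM in monocyte barcodes. It also gave the most UMIs in dendritic barcodes, 27 and 16, or 446 and 314 CPM. Mki67 was at 196 and 141 CPM in melanoma, 199 and 185 CPM in CD8 T, 176 and 171 CPM in macrophage and 22.0 and 15.5 CPM in monocyte barcodes. For Mki67 the first 3 classes therefore lay close together, unlike for Top2a.

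Centromere and checkpoint genes were Cenpa, the centromeric histone, the kinetochore proteins Cenpe and Cenpf, the checkpoint kinases Bub1 and Bub1b, and Birc5, the survivin of the chromosomal passenger complex. Cenpa (chr5:30666777-30674830, plus strand, mm10) was at 107 and 100 CPM in melanoma, 250.3 and 249 CPM in CD8 T, 283 and 90.8 CPM in NK, 69.8 and 84.3 CPM in macrophage and 60.3 and 73.7 CPM in monocyte barcodes. It thus stood in monocytes near its macrophage level. Cenpf was at 183 and 166 CPM in melanoma, 79.5 and 115 CPM in CD8 T, 67.3 and 63.8 CPM in macrophage and 5.74 and 13.6 CPM in monocyte barcodes. Over 16 class and library combinations with at least 50 barcodes, log2 CPM of Cenpf followed the summed 40 genes most closely, with a Pearson r of 0.97, and Cenpa least, with 0.53. The sum holds each gene, and the combinations share libraries, depth and melanoma RNA, so r is a description.

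Spindle, cytokinesis and mitotic exit genes closed the list. Kif11 is the motor that separates the poles, Tpx2 activates Aurora A, Nusap1, Hmmr and Tacc3 bind spindle microtubules, Prc1, Kif23 and Anln build the midzone and cleavage furrow, and Cdc20 and Ube2c act with the anaphase-promoting complex. Anln, the furrow protein anillin (chr9:22332012-22389188, minus strand, mm10), was at 51.7 and 40.6 CPM in melanoma, 5.37 and 2.13 CPM in CD8 T, 20.6 and 22.2 CPM in macrophage and 2.87 and 1.94 CPM in monocyte barcodes. In CD8 T barcodes Anln rested on 5 and 1 UMIs and thus stood near its monocyte level. Prc1 was at 142 and 125 CPM in melanoma, 89.2 and 59.6 CPM in CD8 T and 68.3 and 59.5 CPM in macrophage barcodes. Ube2c was at 181 and 135 CPM in melanoma, 151 and 151 CPM in CD8 T, 93.9 and 85.4 CPM in macrophage and 6.44 and 30.3 CPM in NK barcodes. Each NK value rested on 1 UMI.

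**Figure D3:**
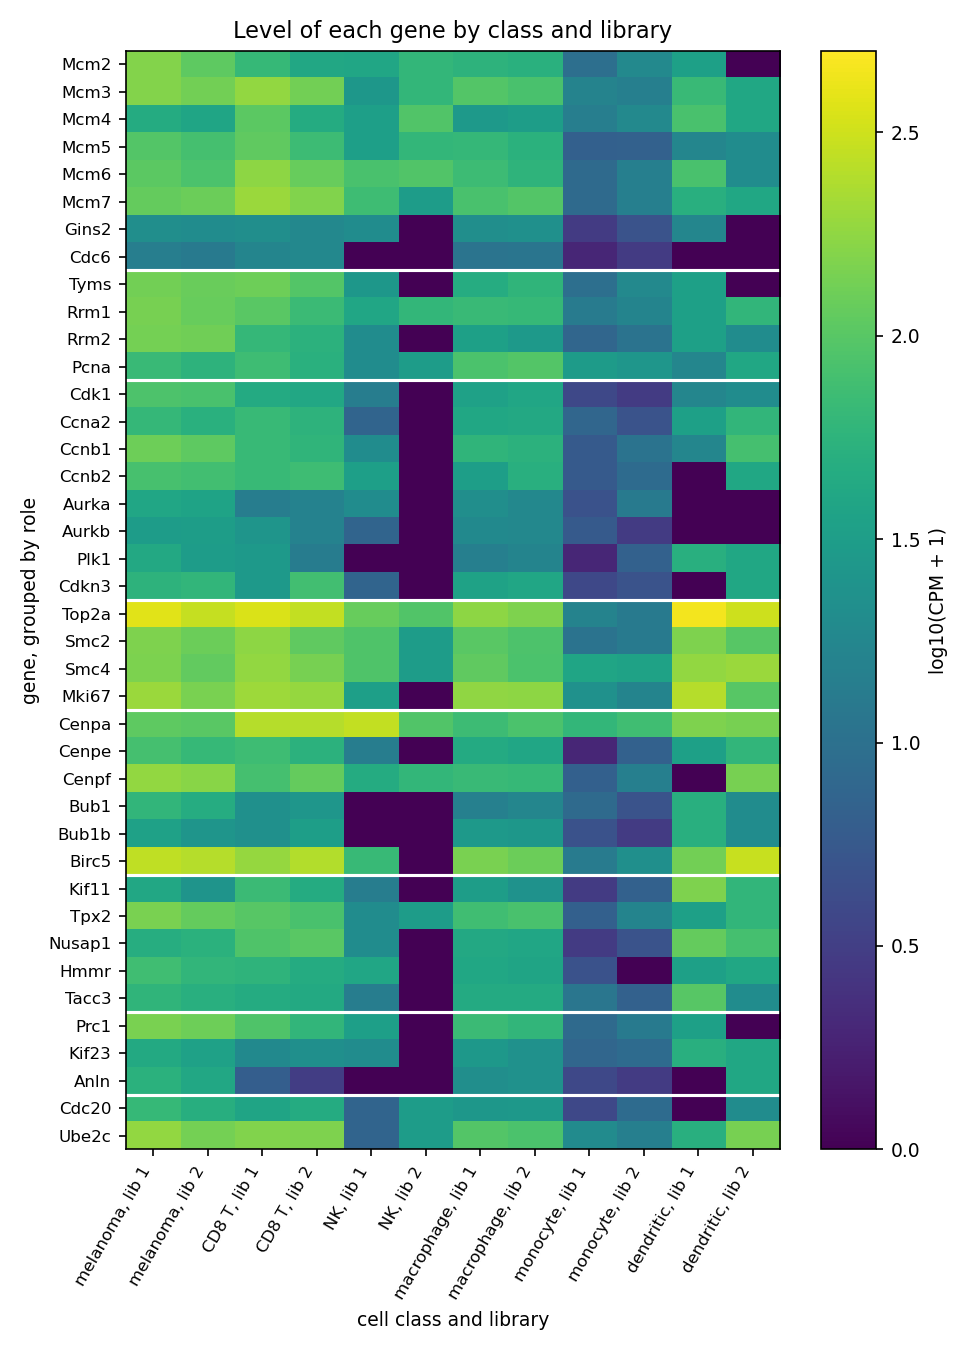
Level of each of the 40 genes as log10(CPM + 1) by class and library, with white lines between role groups. Monocyte columns are the darkest of the large classes, Cenpa is bright in CD8 T (250 and 249 CPM) and in NK barcodes of library 1 (283 CPM), and Anln is dark in CD8 T barcodes (5.37 and 2.13 CPM).

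Melanoma barcodes against CD8 T barcodes gave few calls. All 40 genes had 50 UMIs, and 4 were higher in melanoma and 1 lower, or 4 of 40 against 25% of 11096 genes higher and 1 of 40 against 8.97% lower. The genes called higher were Anln, by 9.63 (4.12 to 29.7) and 19.1 times (3.43 to 755), Aurka, by 3.01 (1.72 to 5.83) and 2.38 times (1.15 to 5.92), Mcm2, by 2.49 (1.93 to 3.27) and 2.66 times (1.70 to 4.42), and Rrm2, by 2.18 (1.68 to 2.88) and 2.44 times (1.65 to 3.77). Cenpa was lower, at 0.427 (0.374 to 0.490) and 0.402 times (0.335 to 0.487) its CD8 T level. The median log2 ratio of the 40 was 0.29 and 0.15, against 0.35 and 0.34 for all genes. Weighting every barcode equally gave 10 members called higher in place of 4, and the share over all genes under that weighting was not computed.
Against macrophages 8 of 40 were higher in melanoma and 0 lower, against 23.8% of 11254 genes higher and 12.9% lower. They were Rrm2, by 4.10 (3.22 to 5.31) and 4.61 times (3.51 to 6.18), Bub1, by 4.19 and 2.81 times, and Mcm2, Tyms, Cdk1, Ccnb1, Cenpf and Prc1, by 2.02 to 2.88 times. The median log2 ratio of the 40 was 0.79 and 0.64, against 0.46 and 0.35 for all genes. With at least 3 markers per class, 5 were called higher, again with no share over all genes computed. In both comparisons, with UMIs summed under the main rules, the share of members called higher lay below that over all genes. The counts are thus no result about these genes as a group.

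Among leukocytes the differences were larger. Macrophages held more than monocytes for 28 of the 30 genes with 50 UMIs and less for 0, against 8.46% of 5069 genes higher and 4.73% lower. Cenpe, which moves chromosomes along the spindle, was higher by 45.6 (7.98 to 1824) and 6.60 times (2.17 to 32.8), with 1 and 3 UMIs in monocytes. Mki67 was higher by 8.01 (5.25 to 12.8) and 11.05 times (5.54 to 25.8), and Top2a by 11.3 (6.89 to 20.1) and 13.0 times (5.88 to 35.6). The lowest called ratios were 2.88 times, of Pcna in library 1, and 2.46 times, of Smc4 in library 2. Cenpa, at 1.16 (0.854 to 1.58) and 1.14 times (0.799 to 1.68), and Mcm4, at 2.02 (1.11 to 3.95) and 1.77 times (0.868 to 4.06), were not called.
CD8 T barcodes held more than monocytes for 12 of 12 genes, against 10.2% of 2654 genes higher and 18.9% lower. Top2a was higher by 23.1 (14.0 to 40.9) and 24.1 times (10.8 to 67.0) and Cenpa by 4.15 (3.13 to 5.58) and 3.38 times (2.33 to 5.01), the lowest of the 12 in both libraries. Against NK barcodes, 7 of 11 were higher in CD8 T barcodes and 0 lower, against 8.38% of 1349 genes higher and 2.30% lower. They were Mcm3, Mcm7, Top2a, Smc4, Mki67, Birc5 and Ube2c. Top2a was higher by 3.05 (1.90 to 5.21) and 3.09 times (1.04 to 15.2), while Mki67 and Birc5 had no UMI in NK barcodes of library 2. The library 2 intervals of Mcm3 (0.578 to 18.4), Mcm7 (0.880 to 203), Smc4 (0.791 to 183) and Ube2c (0.867 to 200) included 1. In NK barcodes of that library Mcm3 had 2 UMIs and Mcm7, Smc4 and Ube2c had 1 each.
A gene can reach 50 UMIs through the higher class alone, so these counts describe the genes that passed and not all 40. With a minimum of 10 UMIs, 35 of 36 were called higher for CD8 T over monocyte barcodes and 22 of 34 for CD8 T over NK barcodes. The share over all genes was not computed at that minimum, so nothing is read from these 2 counts. No member reached 50 UMIs between dendritic and monocyte barcodes, where 2.87% of 1566 genes were higher and 18.6% lower in dendritic barcodes. CD8 T, macrophage, monocyte and NK barcodes differed in depth, with medians of 1626 and 1450, 3401 and 2528, 1896.5 and 1076, and 886 and 737.5 UMIs. The part of depth in these ratios was not tested.

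Cycling barcodes of different classes were also compared with each other. Within cycling barcodes alone the 40 genes summed to 5421 and 4654 CPM in melanoma, 5686 and 5058 CPM in CD8 T and 4644 and 4050 CPM in macrophage barcodes. Since the 40 genes chose these barcodes, their level against the other barcodes is no finding. For that contrast, 39 of 40 tested members in melanoma, 10 of 11 in CD8 T and 29 of 29 in macrophage barcodes were called higher, against 2.96%, 3.11% and 2.30% of all genes, and nothing is read from it.
Between classes, cycling melanoma against cycling macrophage barcodes had 1 member called higher of 40, Rrm2, and 0 lower, against 20.8% and 11.8% of 10631 genes. Rrm2 was at 177 and 169 CPM in cycling melanoma and 71.6 and 52.2 CPM in cycling macrophage barcodes, higher by 2.47 (1.91 to 3.24) and 3.25 times (2.41 to 4.49). The median log2 ratio of the 40 was 0.14 and 0.19, against 0.79 and 0.64 over all barcodes of the classes.
Cycling melanoma against cycling CD8 T barcodes had Anln, Aurka and Mcm2 higher and Cenpa and Nusap1 lower, 3 and 2 of 40 against 24.9% and 7.33% of 10530 genes. Anln was at 69.0 and 55.4 CPM in cycling melanoma and 7.17 and 3.88 CPM in cycling CD8 T barcodes. Nusap1, which bundles spindle microtubules, was at 66.4 and 73.6 CPM in cycling melanoma and 147 and 175 CPM in cycling CD8 T barcodes. Cycling macrophage against cycling CD8 T barcodes had 0 higher and 1 lower of 32, Cenpa, at 125 and 136 CPM against 326 and 369 CPM, with 19.8% of 2938 genes higher and 5.72% lower. Cenpa was thus called lower than in CD8 T barcodes in each comparison of cycling barcodes with them. For cycling melanoma over cycling CD8 T barcodes the median log2 ratio of the 40 was -0.04 and -0.15. The members took part in choosing these barcodes, so the ratios are descriptions.

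Other genes of the same pathways, taken from lists and not used to call cycling barcodes, were compared between cycling and other barcodes of a class. Of 30 further S phase genes, 24 of 30 tested were higher in cycling melanoma, 1 of 3 in cycling CD8 T and 8 of 12 in cycling macrophage barcodes, and none was lower. Of 30 further mitosis genes, 29 of 30, 4 of 4 and 9 of 10 were higher. Over all genes 2.96%, 3.11% and 2.30% were higher. Tk1, thymidine kinase, was at 74.3 and 68.1 CPM in cycling and 18.6 and 18.9 CPM in other melanoma barcodes. Stmn1, which destabilises microtubules, was at 847 and 616 CPM in cycling and 185 and 183 CPM in other macrophage barcodes, and at 817 and 889 CPM in cycling and 138 and 209 CPM in other CD8 T barcodes. Hmgb2, a chromatin protein, was at 1309 and 1914 CPM in cycling and 417 and 532 CPM in other CD8 T barcodes.
Depth moved with this split. Cycling barcodes had medians of 19604.5 and 12696.5 UMIs against 15232.5 and 10492 for the others in melanoma, 3742 and 2346.5 against 1607 and 1454.5 in CD8 T, and 5383.5 and 3137 against 3072 and 2321.5 in macrophages. Pigment gene RNA in cycling and other macrophages was 249 and 224 CPM in library 1 and 744 and 777 CPM in library 2, with no shared direction. In CD8 T barcodes it was 220 and 305 CPM in library 1 and 586 and 570 CPM in library 2. The part of depth in the differences between cycling and other barcodes was not tested.

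Regulators of the G1 to S step were measured beside the 40 genes. D-type cyclins bind Cdk4 and Cdk6 to open S phase. Ccnd1 was at 104 and 151 CPM in melanoma, 158 and 124 CPM in macrophage, 4.30 and 10.6 CPM in CD8 T and 19.1 and 15.5 CPM in monocyte barcodes. Ccnd2 was at 346 and 486 CPM in melanoma, 229 and 251 CPM in CD8 T and 51.2 and 58.9 CPM in macrophage barcodes. Cdk6 was at 12.8 and 12.9 CPM in melanoma, 185 and 121 CPM in CD8 T and 101 and 94.0 CPM in macrophage barcodes.
Cdk2 was at 127 and 111 CPM in melanoma, 19.3 and 10.6 CPM in CD8 T and 14.6 and 14.6 CPM in macrophage barcodes. In melanoma against CD8 T barcodes 3 of 16 such regulators were higher and 4 lower, against 25% and 8.97% of all genes. Against macrophages 3 of 16 were higher and 3 lower, against 23.8% and 12.9% of all genes. The Cdk inhibitor p21, encoded by Cdkn1a, was at 160.1 and 321 CPM in melanoma, 45.1 and 145 CPM in CD8 T, 413 and 389.7 CPM in macrophage and 615 and 591 CPM in monocyte barcodes. Cdkn1b, which encodes p27, was lower in macrophages than in monocytes, at 49.7 and 35.1 CPM against 147 and 101 CPM.

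Cycling melanoma barcodes held less RNA of several hypoxia genes than other melanoma barcodes. Of 12 hypoxia genes tested 3 were lower and 0 higher, against 0.586% and 2.96% of 10927 genes. They were Pgf, a growth factor of the VEGF family, at 43.8 and 42.1 CPM in cycling and 133 and 118 CPM in other barcodes, Ero1l, an oxidase of the endoplasmic reticulum, and Ndrg1. Their ratios were 0.330 and 0.357 for Pgf, 0.387 and 0.446 for Ero1l and 0.467 and 0.447 for Ndrg1. All 12 ratios were under 1 in both libraries, with Ldha nearest to it at 0.93 in each, and the median log2 ratio was -0.96 and -0.90, against 0.02 and 0.02 for all genes. Of 7 p53 targets 1 was lower, Trp53inp1, at 6.82 and 11.1 CPM in cycling and 16.3 and 24.9 CPM in other barcodes.
None of 7 pigment cell genes was called. Pmel was at 3489 and 2775 CPM in cycling and 3353 and 2483 CPM in other barcodes. In the G1 to S list 6 of 16 were higher, among them E2f8, a repressor made in S phase, at 8.90 and 9.14 CPM in cycling and 1.44 and 1.83 CPM in other barcodes. Ccnd2 ran below 1 without a call, at 284 and 398 CPM in cycling and 489.6 and 659 CPM in other barcodes.

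In CD8 T barcodes the effector genes gave 1 call. Ifng, which encodes interferon gamma, was lower in cycling barcodes, at 55.6 and 264 CPM against 247 and 797 CPM in other CD8 T barcodes, where 0.274% of 1095 genes were lower. Ccl5, a chemokine of effector T cells, was at 2427 and 2826 CPM in cycling and 8648 and 5171 CPM in other barcodes and was not called. Gzma, which encodes granzyme A, went opposite ways in the libraries, with 66.3 and 329.9 CPM in cycling and 385 and 19.0 CPM in other barcodes. Pdcd1, the checkpoint receptor PD-1, was at 376 and 272 CPM in cycling and 349.9 and 354 CPM in other barcodes, Havcr2, which encodes TIM-3, at 118 and 128 CPM and 125 and 146 CPM, and neither was called.

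In macrophages 3 of 3 tested genes of a monocyte list were lower in cycling barcodes, against 0.459% of 4136 genes. Il1b, which encodes interleukin 1 beta, was at 355 and 95.8 CPM in cycling and 1701 and 434 CPM in other macrophages. Thbs1, thrombospondin 1, was at 45.4 and 75.2 CPM in cycling and 278 and 294 CPM in other macrophages. Chil3, at 10.7 and 32.7 CPM in cycling and 156 and 78.0 CPM in other macrophages, was among the markers that separate monocytes from macrophages, so its level is bounded by the class rule.
Of 8 tested hypoxia genes 1 was lower and 0 higher, against 0.459% and 2.30% of all genes. It was Vegfa, an angiogenic factor, at 21.5 and 27.9 CPM in cycling and 53.5 and 82.0 CPM in other macrophages. No gene of a macrophage list was called. C1qa, a complement gene and class marker, was at 4721 and 3226 CPM in cycling and 3693 and 2701 CPM in other macrophages, and the MHC class II gene H2-Aa at 841 and 278 CPM in cycling and 1423 and 455 CPM in other macrophages.

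**Figure D4:**
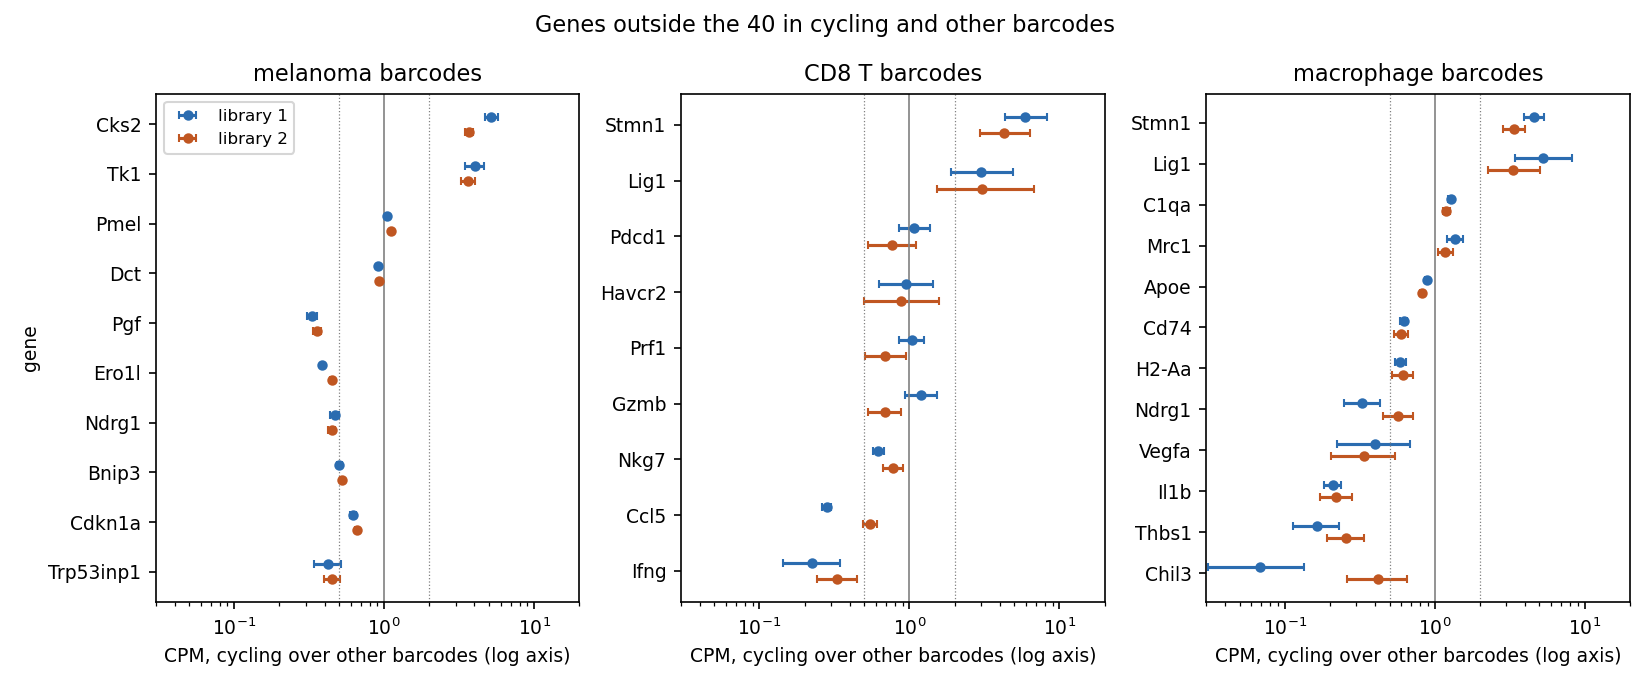
Ratio of CPM in cycling over other barcodes (log axis) for genes outside the 40, in melanoma, CD8 T and macrophage barcodes of each library, with exact conditional 95% intervals and dotted lines at 2 times lower and higher. Cks2, Tk1, Stmn1 and Lig1 lie right of the upper line, Pgf, Ifng, Il1b and Thbs1 left of the lower one, and Pmel, Dct, Pdcd1 and C1qa near 1.

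Over the same 16 combinations, the genes outside the 40 whose log2 CPM followed the summed 40 most closely, of 11890 genes, were Stmn1, Atad2, Pclaf, Rfc5, Dlgap5, Kif14, Cdca8, Nuf2, Brca1 and Orc6, with Pearson r of 0.95 to 0.92. Stmn1 and Atad2 were at 0.95. Some of the 40 genes overlap others in the annotation. A gene on the same strand overlaps 8 of them, none of it protein-coding, and 14 overlap a gene on the opposite strand, such as Ccna2 with Exosc9 and Cdc20 with Elovl1. No source used here says whether counting used strand, so reads of such pairs may be mixed.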

How the data were processed

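The deposited matrix holds counts of unique molecular identifiers (UMIs) per gene and barcode, made by the authors with Cell Ranger and mm10, per the submitters' processing notes, with software version 3.0.2 per the file headers. It has 31053 genes and 18252 barcodes of 2 libraries, with 49129318 and 73507228 UMIs. No source used here says whether counting used strand or whether depth was equalised.

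Barcodes were kept with at least 500 UMIs, 200 genes and at most 10% mitochondrial UMIs. Barcodes whose sequence held over 10 times as many UMIs in the other library were left out as copies. Classes needed at least 2 markers and, per 10000 UMIs, at least 40 marker UMIs for melanoma, 5 for T, NK and dendritic classes (dendritic also 50 MHC class II UMIs), 10 for myeloid and again for macrophage or monocyte markers, and 200 for neutrophils. Barcodes meeting melanoma and immune rules, or several immune rules, were called mixed and left out (129 and 79), and no doublet caller was run. The remaining 634 and 875 unassigned barcodes were left out too.

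The 40 genes and the other lists were chosen with earlier results of these data known, and the class thresholds after seeing the marker counts, without the 40 genes. A level is the UMIs of a gene over all barcodes of a class in 1 library, per 1000000 UMIs of the class (CPM). Ratios are of such sums, and medians of log2 ratios add 0.5 UMI. Beyond the 40, named genes were to be up to 4 highest and 4 lowest ratios per list among those with 50 UMIs, and the 10 genes nearest in pattern, on log2(CPM + 10), among genes with at least 100 UMIs. Genes of the G1 to S, inhibitor and state lists given with no call were chosen after their values were seen. Comparisons between cycling barcodes of different classes were added after seeing the data. The ratio calls and their intervals were tested on simulated counts, and the thinning step on the matrix itself. Analyses used Python 3.11.15, numpy 2.4.6, scipy 1.17.1, pandas 2.3.3 and matplotlib 3.10.9.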

Additional observations from a re-analysis of the deposited data

How the results depend on the processing

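Of 236 comparisons of 45 results with an alternative, 172 stayed within the counting interval or 1.5 times the count and 64 moved. Chosen after seeing the data were the wider dendritic class, the limit of 10 melanoma UMIs, the barcode left out and the cycling against cycling ratios. Values are for library 1, then library 2. With 3 genes needed, cycling shares were 51.4% and 47.9% in melanoma, 30.4% and 40.7% in CD8 T, 13.5% and 0% in NK, 22.5% and 25.9% in macrophages and 0.407% and 2.24% in monocytes. Thinned to 500 UMIs they were 45.1% and 40.3%, 23.3% and 27.98%, 4.73% and 0%, 19.6% and 19.7%, and 1.56% and 2.24%. Thinned to 2000 UMIs they were 78.1% and 76.6% in melanoma and 80.3% and 88.2% in CD8 T, so that CD8 T stood above melanoma, the reverse of the order at 1000 UMIs. At 2000 UMIs they were 71.4% in NK of library 1, 49.6% and 63.9% in macrophages and 10.96% and 18.75% in monocytes. Only 52 of the 148 NK barcodes of library 1 reached even 1000 UMIs, so its share at 2000 UMIs rests on few barcodes. The rules on genes needed and on depth ask for more genes, or read more or fewer UMIs, by construction. Thinning to 2000 UMIs also left out the barcodes below 2000. Among CD8 T barcodes with at least 1000 UMIs, cycling ones had medians of 3742 and 2346.5 UMIs and the others 1607 and 1454.5. The part of the barcodes left out in the reversed order was not tested. With copies kept, the melanoma share of library 2 was 64.2%. Weighting barcodes equally gave levels of 3593 and 3194 CPM in melanoma, 2210.1 and 2536 CPM in CD8 T, 981 CPM in NK of library 1, 1646 and 1888 CPM in macrophages, 332 CPM in monocytes of library 1 and 2067 and 1747 CPM in dendritic barcodes, and 10 members higher for melanoma over CD8 T, against 4. With melanoma RNA subtracted, levels were 3016 CPM in CD8 T of library 2, 2201 and 1937 CPM in macrophages and 268 and 217 CPM in monocytes. With under 10 melanoma UMIs per 10000 they were 3887 CPM in CD8 T of library 1, 325 CPM in monocytes of library 1 and 2951 CPM in dendritic barcodes of library 2, and 3 further S phase and mitosis genes were called in cycling CD8 T barcodes, against 5. Without the barcode with the most UMIs of the 40 genes, NK of library 1 had 1052 CPM and an S phase share of 38.1%, dendritic barcodes 2099 and 1939 CPM and monocytes of library 1 327 CPM. The wider dendritic class had 1968 CPM in library 2. With at least 3 markers, 5 members were called for melanoma over macrophage, against 8, the dendritic S phase share of library 2 was 6.25% and the dendritic cycling share of library 1 was 60%. With 10 UMIs per gene, calls were 22 for CD8 T over NK, 35 for CD8 T over monocyte and 8 for dendritic over monocyte, against 7, 12 and 0, and of further S phase and mitosis genes 27 in cycling CD8 T and 48 in cycling macrophage barcodes, against 5 and 17, since more genes were then tested. For the other settings the cause was not tested. The share of all genes called was not computed under any of these settings, so the counts of calls are given without it. At least 1000 UMIs per barcode, and keeping barcodes with melanoma and immune markers, moved none of the results computed under them. The cycling shares could not move under the first of these, since they already read only barcodes with at least 1000 UMIs. These comparisons still count among the 172.

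No paired analysis was possible because each genotype has 1 library and the barcodes do not tell which. NK of library 2 rests on 29 UMIs of the 40 genes, and the dendritic class on 18 barcodes in each library. Intervals cover counting error and not the spread between tumours, which were pooled.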

Other observations

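The mixed barcodes, which met the rules of more than 1 class, held 2843 and 2084 CPM of the 40 genes in libraries 1 and 2, and 43.1% and 39.4% of them were cycling at equal depth. Barcodes that met no rule held 2690 and 1812 CPM, with 21.2% and 29.4% cycling. Plasmacytoid dendritic barcodes held 395 and 444 CPM, from 27 and 10 UMIs. B barcodes held 622 and 237 CPM, from 56 and 2 UMIs, with an interval of 28.7 to 857 CPM in the 6 B barcodes of library 2. Cdkn2a, which encodes the Cdk inhibitor p16 and ARF, had 1 UMI in all melanoma barcodes of each library, or 0.0255 and 0.0158 CPM, against 7.52 and 27.7 CPM in CD8 T barcodes.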
